A study of Mus musculus with 40 samples.

Results

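The diet comparison in DKO mice, in tissue labelled cerebellum, set 5 libraries from mice on a ketogenic diet (DKO KD, library numbers 2, 3, 23, 24 and 47) against 4 libraries from mice on a standard diet (DKO SD, library numbers 1, 34, 35 and 36). The 9 libraries were chosen by sample titles beginning DKOKD or DKOSD, out of 40 libraries of 4 genotypes labelled DKO, INDY, CSB and WT. All were made from ribosome-depleted total RNA of male C57BL6 mice and sequenced with the DNBseq protocol. INDY is the common name of Slc13a5, the citrate transporter of the plasma membrane, and CSB is the protein made by Ercc6. The labels do not spell out the alleles that make up DKO, which both diet groups carry, and give no age, feeding time or batch. They also do not say whether each library came from a separate animal. The p-values rest on a spread between libraries that is pooled over all 40 libraries in 8 groups and may be technical.

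A ketogenic diet is rich in fat and poor in carbohydrate. The liver then turns fatty acids into the ketone bodies beta-hydroxybutyrate and acetoacetate, which enter the brain through monocarboxylate transporters and are split in mitochondria into acetyl-CoA. CSB is a DNA-dependent ATPase of transcription-coupled repair, and loss of CSB in people causes Cockayne syndrome, in which the cerebellum is among the affected regions. Citrate carried in by Slc13a5 can feed the tricarboxylic acid cycle or, through cytosolic acetyl-CoA, the synthesis of fatty acids and sterols.

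The deposited values are estimated read counts per gene, normalised by the authors so that libraries share a median ratio. Their sums ran from 25828074 in KD 24 to 29471933 in KD 2 among the KD libraries and from 27335713 in SD 1 to 28857051 in SD 35 among the SD libraries, but as normalised sums they do not give the depth, which is unknown. Slc13a5 was listed at 0 in 4 of 5 DKO KD libraries, with 0.9344 in KD 47, and at 0 in all 4 DKO SD libraries, against 82.06 to 161.2 in the CSB and WT libraries. Ercc6 read 469.9 to 876.2 in DKO KD and 540.1 to 654.3 in DKO SD, with medians of 638.5 and 589.8. The medians were 634.0 and 590.0 in CSB KD and CSB SD, 945.9 and 887.3 in INDY KD and INDY SD, and 822.3 and 930.4 in WT KD and WT SD. Slc13a5 was thus at or near 0 in every DKO library. The Ercc6 medians of DKO were close to those of CSB and below those of INDY and WT; within a diet, DKO SD (540.1 to 654.3) lay below WT SD (878.8 to 937.4), while DKO KD overlapped with WT KD (632.7 to 898.8). Correlations of log2 values between the 9 DKO libraries lay between 0.928 and 0.980, and SD 1 had the lowest median, 0.934. Mitochondrially encoded genes took up 9.05% to 11.9% of the total in KD and 8.12% to 11.1% in SD.

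Before any diet difference, 3 of the 9 libraries stood apart in markers of brain regions. A list of 30 genes of forebrain neurons, all of them tested, had a mean log2(value + 1) of 6.45, 5.74, 5.66, 5.79 and 8.20 in KD 2, KD 3, KD 23, KD 24 and KD 47, and of 10.22, 6.09, 8.61 and 5.85 in SD 1, SD 34, SD 35 and SD 36. SD 1, SD 35 and KD 47 were high, and the other 6 libraries lay close together. Libraries of the other genotypes ranged from 5.44 to 8.84, and their highest level lay above SD 35 and KD 47 but below SD 1. High forebrain levels were therefore not particular to DKO. Ddn, which encodes the forebrain dendrite protein dendrin, read 161.4, 75.89, 22.73, 57.06 and 4736 in the KD libraries and 13580, 107, 6217 and 101.9 in the SD libraries. Emx1, a transcription factor of the dorsal telencephalon, read 30.95 in KD 47, 109.6 in SD 1 and 80.54 in SD 35. It was listed at 0 in KD 23, SD 34 and SD 36 and was at most 6.693 in the other libraries. Dlx5 and Fezf2, further forebrain transcription factors, were also listed at 0 in SD 34 and SD 36.

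The 3 libraries did not hold the same forebrain signal. Markers of striatal projection neurons stood at 10.97 in SD 1, where the other 8 libraries lay between 6.79 and 7.76. The dopamine receptor gene Drd1 read 162.1 in KD 47, 3870 in SD 1 and 157.2 in SD 35. Markers of cortex and hippocampus were at 8.77 in KD 47, 9.54 in SD 1 and 9.21 in SD 35, against 6.20 to 6.76 in the remaining 6 libraries. Libraries of the other genotypes reached 9.425. In SD 1 the markers of the labelled tissue were low as well: Gabra6, the granule cell GABA receptor subunit, read 5944 to 6969 in the 5 KD libraries and 16.71, 5934, 2063 and 9498 in SD 1, SD 34, SD 35 and SD 36. The granule cell list averaged 11.48 ± 0.117 (standard deviation, n = 5) in KD and 10.63 ± 1.22 (standard deviation, n = 4) in SD. SD 1 at 8.94 was the lowest of all 40 libraries, the other 31 ranging from 10.21 to 12.18. In bulk RNA, fewer cells of a type and less RNA per cell cannot be told apart. By these markers the library labelled DKO SD 1 goes against its tissue label, and every SD value given with all 9 libraries includes it. The overall counts and most list medians and leading genes are therefore also given without KD 47, SD 1 and SD 35, which leaves 4 KD and 2 SD libraries. A fit with the forebrain level as a covariate is given for the counts. In that fit the median log2 difference was still -0.695 in striatal genes and 0.388 in granule cell genes. The covariate thus did not remove every region difference.

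**Figure D1:**
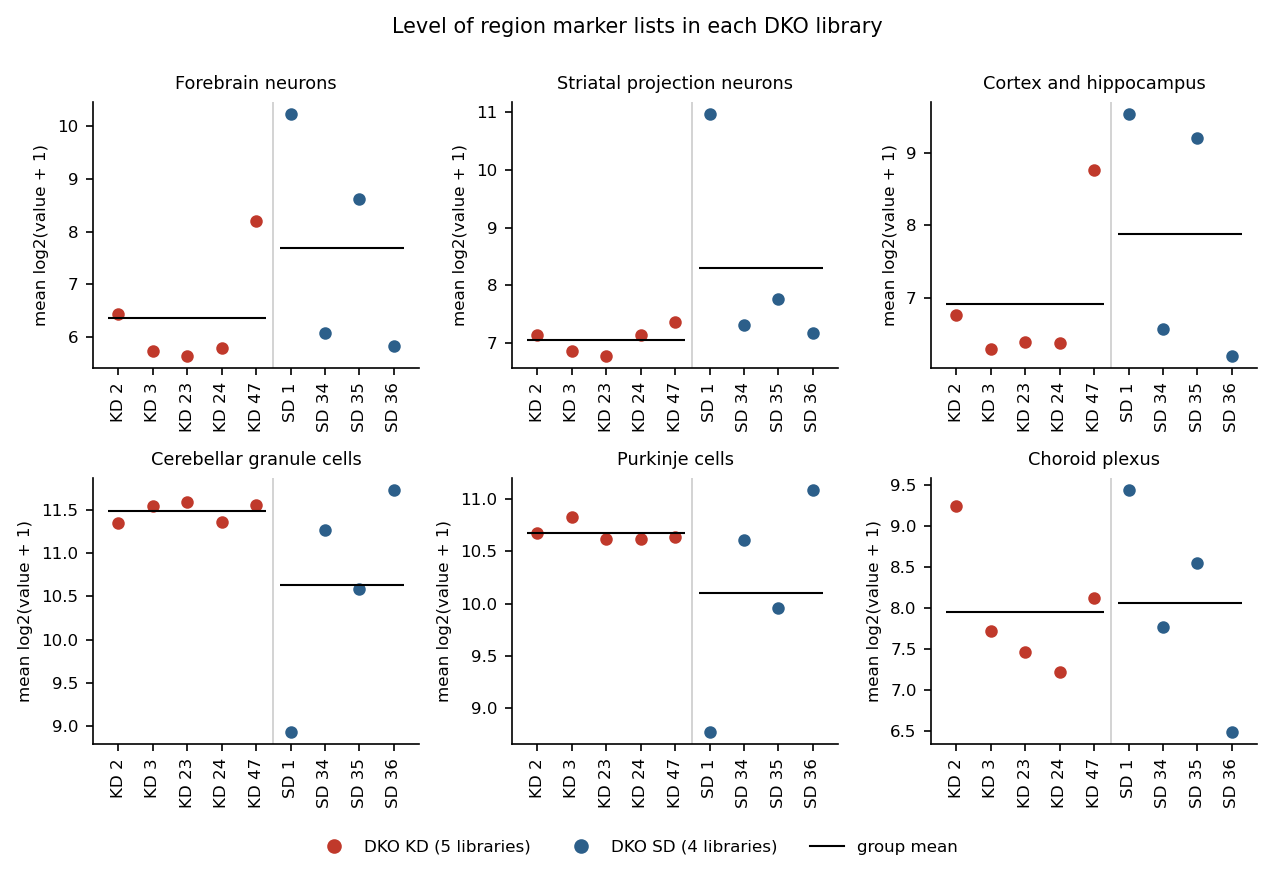
Mean log2(value + 1) of 6 marker lists (y axis) in each DKO library (x axis), KD in red on the left and SD in blue on the right, with black lines at the group means. SD 1, SD 35 and KD 47 were high in forebrain markers, SD 1 reached 10.97 in striatal markers, and SD 1 was lowest in granule and Purkinje cell markers.

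Of 21367 genes tested with limma, 1 passed a Benjamini-Hochberg adjusted p of 0.05, which is 0.00468% of them. It was Catspere1, higher in KD. At an unadjusted p under 0.05, 915 genes were higher in KD (4.28%) and 817 were lower (3.82%), and no overlap between the diets was seen for 161 genes with KD higher (0.753%) and 211 with KD lower (0.988%). Without KD 47, SD 1 and SD 35, 0 genes passed in limma (0.0%). In that fit 702 genes were higher (3.29%) and 434 lower (2.03%) at an unadjusted p under 0.05, and the lowest adjusted p was 0.242. With the forebrain level as a covariate and all 9 libraries, Catspere1 was again the only gene called (0.00468%). There, 357 genes were higher (1.67%) and 287 lower (1.34%) at an unadjusted p under 0.05. The count at an unadjusted p under 0.05, 1732 with all libraries, was 810 without SD 1, 1152 without KD 23 and 3047 without SD 36.

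Catspere1 is annotated as an unprocessed pseudogene on chromosome 1 (GRCm38, 177808550 to 177962233), next to Catspere2. Both are named after the epsilon subunit of the sperm calcium channel CatSper. It read 354.9, 7.52, 251.8, 294.7 and 297.6 in KD 2, KD 3, KD 23, KD 24 and KD 47, and 7.938, 4.425, 11.48 and 9.816 in SD 1, SD 34, SD 35 and SD 36. KD 3 lay among the SD libraries and the other 4 KD libraries far above them, so the diets overlapped through a single library. The group means were 241.3 ± 135.7 (standard deviation, n = 5) in KD and 8.414 ± 3.027 (standard deviation, n = 4) in SD. The log2 difference was 4.03 with a standard error of 0.65 (limma, adjusted p = 0.00827), a 16.3-fold difference on the log2(value + 1) scale, which understates the change of low genes. In the 31 libraries of the other genotypes it ranged from 1.926 to 20.39, so 4 DKO KD libraries stood above all 36 others. Without KD 3, the only low KD library, the log2 difference was 5.05 (limma, adjusted p = 1.97e-09). KD 3 was singled out by this same low value, so the rise was built into that choice and supports nothing. Without SD 1, SD 34, KD 2, KD 23, KD 24 or KD 47 the call was lost at adjusted p of 0.0537 to 0.128 (limma). In a fit of the DKO libraries alone the adjusted p was 0.798 (limma). The main fit pools the spread with the 31 libraries of the other genotypes, where this gene was low throughout, so the call leans on their small spread. Without KD 47, SD 1 and SD 35 the log2 difference was 4.002 (limma, adjusted p = 0.242), and with the forebrain level as a covariate it was 4.29 (limma, adjusted p = 0.00404).

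Ifi202b, an interferon-inducible gene of the p200 family of DNA-binding proteins, had the next smallest p and was named after its values were seen, since its mean lay under the limit of 20 for named genes. It read 21.6, 0, 27.67, 22.26 and 17.11 in KD 2, KD 3, KD 23, KD 24 and KD 47, and 0, 0, 1.052 and 0 in SD 1, SD 34, SD 35 and SD 36. Again KD 3 lay with the SD libraries and the other 4 KD libraries above them. The other genotypes read 0 to 4.231. The log2 difference was 3.35 with a standard error of 0.63 (limma, adjusted p = 0.0587). The gene reached 10 in these 4 KD libraries alone and so entered the test only through the diet in which it is high, and its p supports nothing. Leaving out each DKO library in turn gave log2 differences of 3.04 to 4.25, the highest without KD 3, the library at 0, and without KD 47, SD 1 and SD 35 it was 3.47. Ifi202b lies 3.83 Mb from Catspere1 on the same chromosome.

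The reference sequences before the start of these 2 genes are shown because the first is the only gene called and the second came next to it. They are the 250 bases upstream of the RefSeq start on GRCm38.p6, 5′ to 3′ on the gene's strand, at chr1:177808169-177808418 (plus strand) for Catspere1 and chr1:173982845-173983094 (minus strand) for Ifi202b. Capitals mark CG dinucleotides, the sites of DNA methylation in mammals.
Catspere1: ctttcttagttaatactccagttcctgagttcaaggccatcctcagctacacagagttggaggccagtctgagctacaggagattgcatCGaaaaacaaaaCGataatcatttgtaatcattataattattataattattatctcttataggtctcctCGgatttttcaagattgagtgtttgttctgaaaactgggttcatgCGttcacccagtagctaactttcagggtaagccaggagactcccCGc
Ifi202b: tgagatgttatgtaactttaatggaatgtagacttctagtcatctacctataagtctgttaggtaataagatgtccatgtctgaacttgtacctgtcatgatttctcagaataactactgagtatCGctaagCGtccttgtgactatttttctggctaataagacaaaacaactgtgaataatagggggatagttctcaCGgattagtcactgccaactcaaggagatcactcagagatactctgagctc
They hold 5 and 3 CG dinucleotides, where the median of 32851 promoters of that length was 6 with quartiles of 2 and 16. Neither promoter is rich in CG, and these letters belong to the reference strain and say nothing of the sequence in the DKO libraries.

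Genes around Catspere1 and Ifi202b were read out next, within 5 Mb on either side. Of 188 genes tested in this window, 10 were higher and 8 lower in KD at an unadjusted p under 0.05, which is 9.57% of them beside 4.28% higher and 3.82% lower over all genes, and 1 was called. The window's share was near that of all genes. Catspere1 and Ifi202b, which set the window, are among the 10 higher, and Catspere1 is the 1 called, so these counts support nothing. The following genes were singled out after their values were seen. Catspere2 read 860, 300.6, 653.6, 739.5 and 797.1 in KD 2, KD 3, KD 23, KD 24 and KD 47, and 485.2, 353.4, 394.8 and 405.2 in SD 1, SD 34, SD 35 and SD 36. KD 3 was the lowest of the 9, while the other 4 KD libraries lay above all SD libraries and above the 183.9 to 614.9 of the other genotypes. Its transcripts share 89.7% of 3036 aligned bases with Catspere1, so reads may be split between these genes. Nvl encodes an ATPase of 60S ribosome assembly. It read 979.7, 1578, 1278, 1032 and 1099 in the KD libraries and 1739, 1385, 1636 and 1420 in the SD libraries. Here the same 4 KD libraries lay below the SD libraries and below the 1304 to 2269 of the other genotypes, and KD 3 lay inside both ranges. Neither Catspere2 (log2 difference 0.63, limma adjusted p = 0.588) nor Nvl (log2 difference -0.39, limma adjusted p = 0.587) passed the threshold. Copa, a coat protein of transport vesicles, read 5450, 6820, 5468, 5909 and 6148 in KD and 6089, 7956, 7091 and 6774 in SD. The diets overlapped, since KD 47 lay above SD 1, and KD 3 above SD 1 and SD 36. KD 2, KD 23, KD 24 and KD 47 lay below the 6265 to 7712 of the other genotypes, as SD 1 did. Ifi204 and Kcnj10, also read out in this window, lacked such a pattern. In these 4 KD libraries Ifi204 read 28.59 to 52.37, within the 19.84 to 106.2 of the other genotypes. Kcnj10 read 3527 to 6062 in them, within the 1590 to 6244 of the other genotypes.

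**Figure D2:**
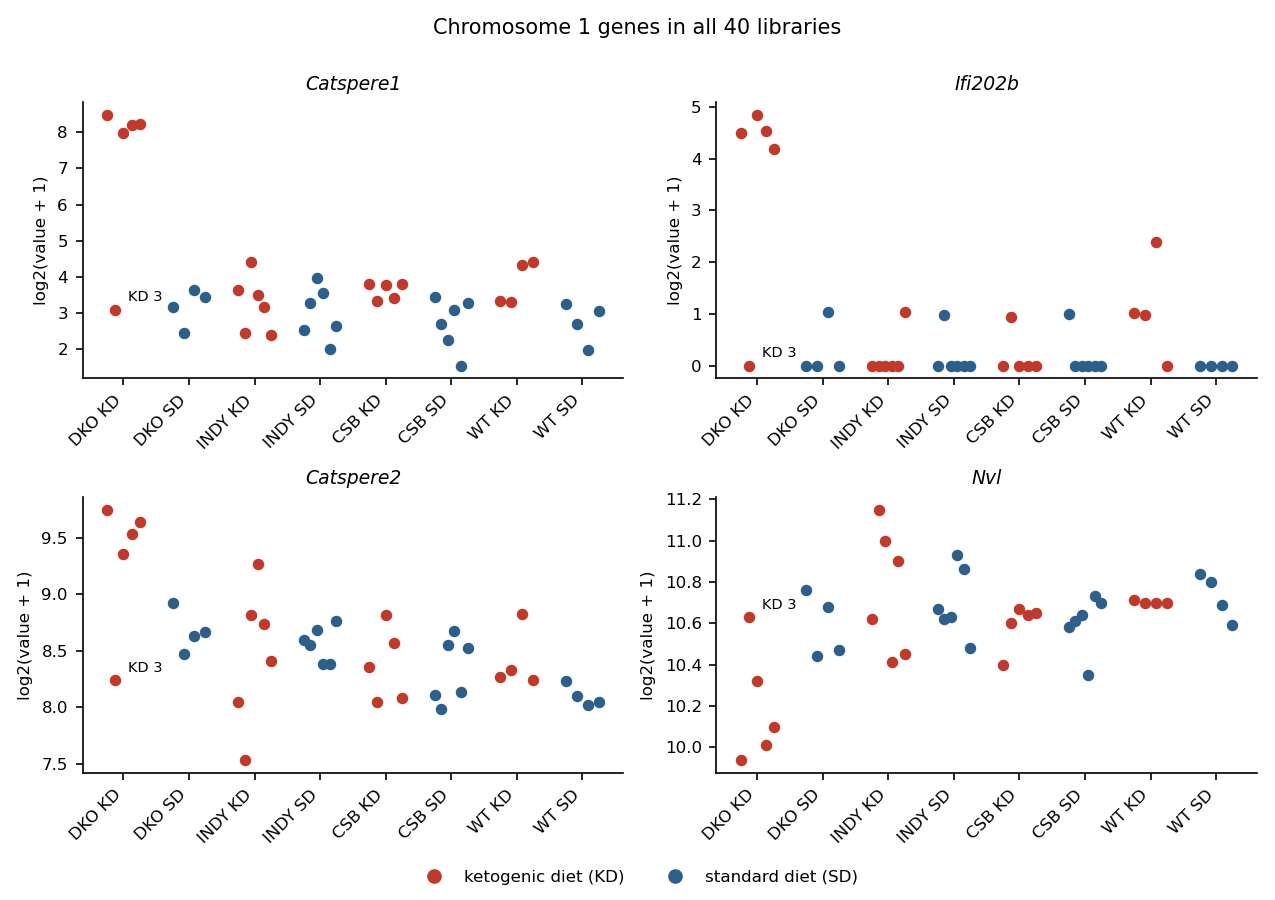
Log2(value + 1) of 4 genes of chromosome 1 (y axis) in each of the 40 libraries, by genotype and diet (x axis), with KD in red and SD in blue and DKO KD 3 labelled. In each panel 4 of the 5 DKO KD libraries lie outside the range of all other libraries and KD 3 lies inside it. The 4 genes were chosen after their values were seen, and Copa, Ifi204 and Kcnj10, not drawn, lack this pattern.

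Genes of ketone body transport, synthesis and use showed no called difference. Of 23 list members 21 were tested and 0 were called by limma, beside 0.00468% of all genes. At an unadjusted p under 0.05, 1 was higher and 0 lower, beside 4.28% and 3.82% of all genes. Without the 3 libraries 1 was higher and 0 lower, beside 3.29% and 2.03%. The list level averaged 8.42 ± 0.06 (standard deviation, n = 5) in KD and 8.42 ± 0.13 (standard deviation, n = 4) in SD. The median log2 difference was -0.05 with all libraries and 0.07 without KD 47, SD 1 and SD 35, where the median of all genes was 0.01 and 0.00167. All 21 members overlapped between the diets, as nearly all genes did. Over all genes 0.753% did not overlap with KD higher and 0.988% with KD lower.

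Among transporters, Slc16a1 encodes MCT1, the monocarboxylate transporter of the blood-brain barrier and glia. It read 2042, 2280, 2050, 2333 and 2126 in KD 2, KD 3, KD 23, KD 24 and KD 47, and 1768, 2244, 1789 and 1968 in SD 1, SD 34, SD 35 and SD 36. The KD libraries sat slightly higher, but SD 34 lay among them, and the log2 difference of 0.16 with a standard error of 0.10 did not pass (limma, adjusted p = 0.698). Slc16a7, which encodes the neuronal transporter MCT2, read 577.6 to 1016 in KD and 781.3 to 1216 in SD, a log2 difference of -0.32 with a standard error of 0.16. Bsg, a chaperone of monocarboxylate transporters such as MCT1, read 7384 to 9302 in KD and 7077 to 8233 in SD.

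Of the enzymes that interconvert and use ketone bodies, Bdh1, the beta-hydroxybutyrate dehydrogenase, averaged 980.4 ± 66.31 (standard deviation, n = 5) in KD and 1057 ± 165.9 (standard deviation, n = 4) in SD. Oxct1, which encodes SCOT, the enzyme that activates acetoacetate, averaged 7505 ± 854.6 in KD and 7967 ± 976.7 in SD. Their log2 differences of -0.10 and -0.09 were smaller than their standard errors of 0.12 and 0.10. With all libraries, the smallest p of the whole list, not only of these enzymes, belonged to Acss2, the cytosolic acetyl-CoA synthetase. It read 1465 to 1638 in KD and 996.8, 1467, 1437 and 1427 in SD, where SD 1 was low. Its log2 difference was 0.25 with all libraries (limma, unadjusted p = 0.0172) and 0.10 without the 3 libraries (limma, unadjusted p = 0.373). Hcar2, the receptor for beta-hydroxybutyrate and niacin, was low in all libraries, with 4.143 to 15.32 in KD and 4.879 to 14.57 in SD.

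**Figure D3:**
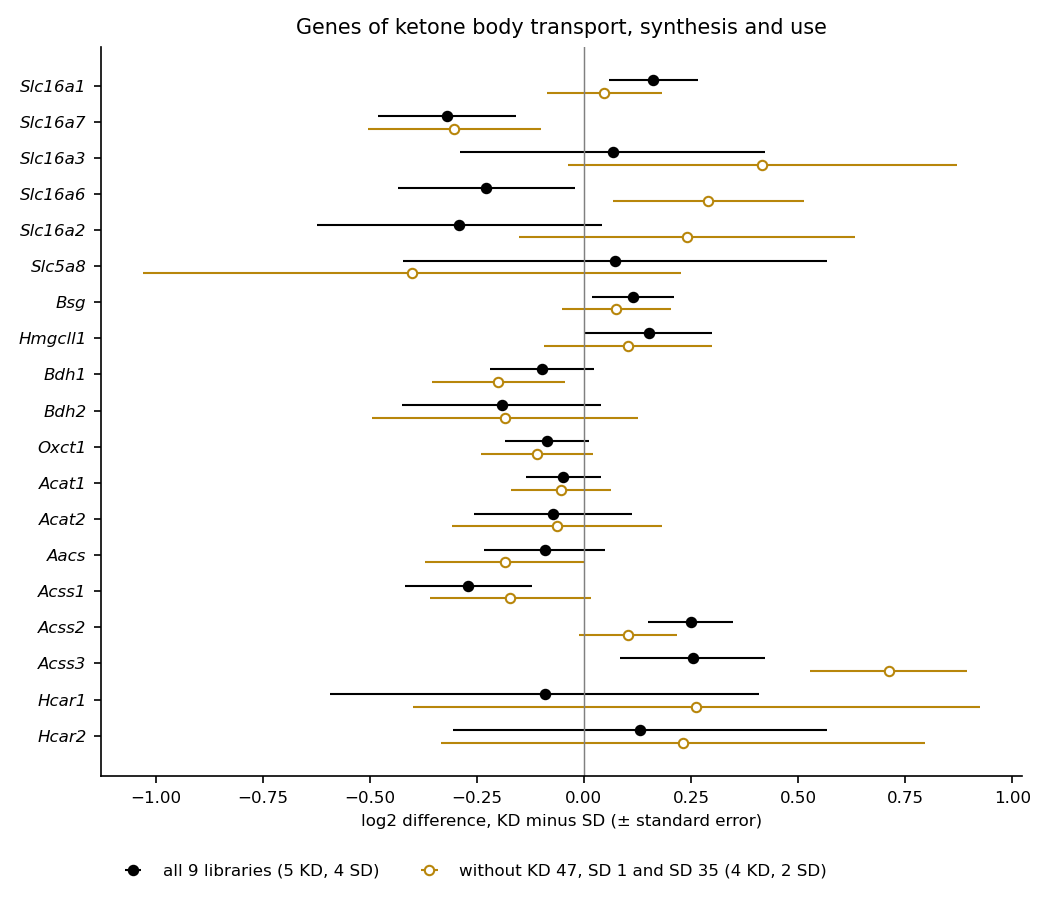
Log2 difference between KD and SD with its standard error (x axis) for genes of ketone body transport, synthesis and use (y axis), with all 9 libraries in black and without KD 47, SD 1 and SD 35 in open gold circles. With all libraries Acss2 and Acss3 were both at 0.25, and without the 3 they were at 0.10 and 0.71.

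Fatty acid oxidation genes and targets of PPAR, the nuclear receptors that sense fatty acids, gave a similar picture. Of 50 members 49 were tested and 0 were called, beside 0.00468% of all genes. At an unadjusted p under 0.05, 2 were higher and 1 lower, beside 4.28% and 3.82% of all genes. Without the 3 libraries 0 were higher and 1 was lower, beside 3.29% and 2.03%. The median log2 difference was 0.07, and 0.03 without the 3 libraries. Ucp2, a mitochondrial carrier of the inner membrane, read 385.8, 342.7, 335.7, 390.3 and 247.6 in KD 2, KD 3, KD 23, KD 24 and KD 47, and 205, 261.2, 172.5 and 251.9 in SD 1, SD 34, SD 35 and SD 36. KD 47 was inside the SD range and the other KD libraries were above it. The log2 difference was 0.61 with a standard error of 0.23 (limma, unadjusted p = 0.0116), and 0.50 without the 3 libraries (limma, unadjusted p = 0.0964). Acadvl, the very-long-chain acyl-CoA dehydrogenase, did not overlap, with 1045 to 1205 in KD and 850.8 to 1044 in SD, although the groups nearly met.

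Citrate transport and use likewise held no member past an unadjusted p of 0.05, of 15 tested out of 16. The median log2 difference was 0.03, and -0.07 without the 3 libraries. Acly, which cleaves cytosolic citrate into acetyl-CoA, read 6136 to 7838 in KD and 4921 to 7670 in SD. Me1, the cytosolic malic enzyme, read 1092 to 1314 in KD and 710.5 to 1168 in SD, where SD 1 was lowest. Fasn, the fatty acid synthase, read 4828 to 6001 in KD and 5077 to 5980 in SD, with a log2 difference of -0.01. The further lists of energy metabolism had 0 called members in limma, beside 0.00468% of all genes. Beside 4.28% higher and 3.82% lower over all genes at an unadjusted p under 0.05, they held 1 higher and 1 lower of 32 genes of the TCA cycle and pyruvate entry, 1 higher of 29 genes of glycolysis, 1 higher of 33 genes of cholesterol synthesis, and 0 of 54 nuclear genes of oxidative phosphorylation. Without the 3 libraries 1 gene of cholesterol synthesis was higher and no other member of these 4 lists passed. The oxidative phosphorylation list had 45 members above 0 and a median of 0.06 with all libraries, and 14 above 0 and a median of -0.05 without the 3. The TCA list likewise had medians of 0.04 and -0.07, and glycolysis 0.02 and -0.05. The 13 mitochondrially encoded mRNAs had a median of -0.10 (and -0.16 without the 3 libraries), with none of them above 0 with all libraries and 2 above it without the 3. The 53 cytosolic ribosomal protein genes had a median of -0.13 (and -0.15), with none above 0 and 1 above it without the 3. Neither group had a member past an unadjusted p of 0.05. Pdk2, a kinase that switches off pyruvate dehydrogenase, read 1077 to 1388 in KD and 656.1, 1215, 1009 and 1087 in SD, with SD 1 low again.

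The 4 lists with median differences farthest from 0 were those of forebrain neurons, striatal neurons, cortical and hippocampal neurons, and granule cells. All 4 medians lay near 0 without the 3 libraries. These libraries were left out for their high forebrain level. The move of the forebrain medians and counts towards 0 was thus built into that choice and supports nothing. Beside the counts that follow, 4.28% of all genes were higher and 3.82% lower with all libraries, and 3.29% and 2.03% without the 3. Of 30 forebrain genes 11 were lower and 0 higher in KD at an unadjusted p under 0.05, with a median log2 difference of -1.37; without KD 47, SD 1 and SD 35 these counts were 0 and 0 and the median was -0.06. Of 24 granule cell genes 14 were higher and 0 lower, with a median of 0.72; without the 3 libraries both counts were 0 and the median was -0.05. Of 26 Purkinje cell genes 11 were higher and 1 lower, with a median of 0.58, against 0 higher and 1 lower and a median of -0.20 without them. Fat2, a cadherin of granule cells, read 8030 to 15650 in KD and 42.06, 10040, 3816 and 12300 in SD 1, SD 34, SD 35 and SD 36. Lhx1, a Purkinje cell transcription factor, read 251.9 to 416.2 in KD and 18.12, 267.8, 81.15 and 312.7 in SD. In both genes SD 1 and SD 35 were low, and SD 34 and SD 36 lay within or near the KD range. Drd2, the dopamine receptor of striatopallidal neurons, read 87.59 to 131.3 in KD and 1026, 165.2, 150.5 and 154.8 in SD. Its diets did not overlap, and its log2 difference was -1.27 with all libraries and -0.56 without the 3.

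**Figure D4:**
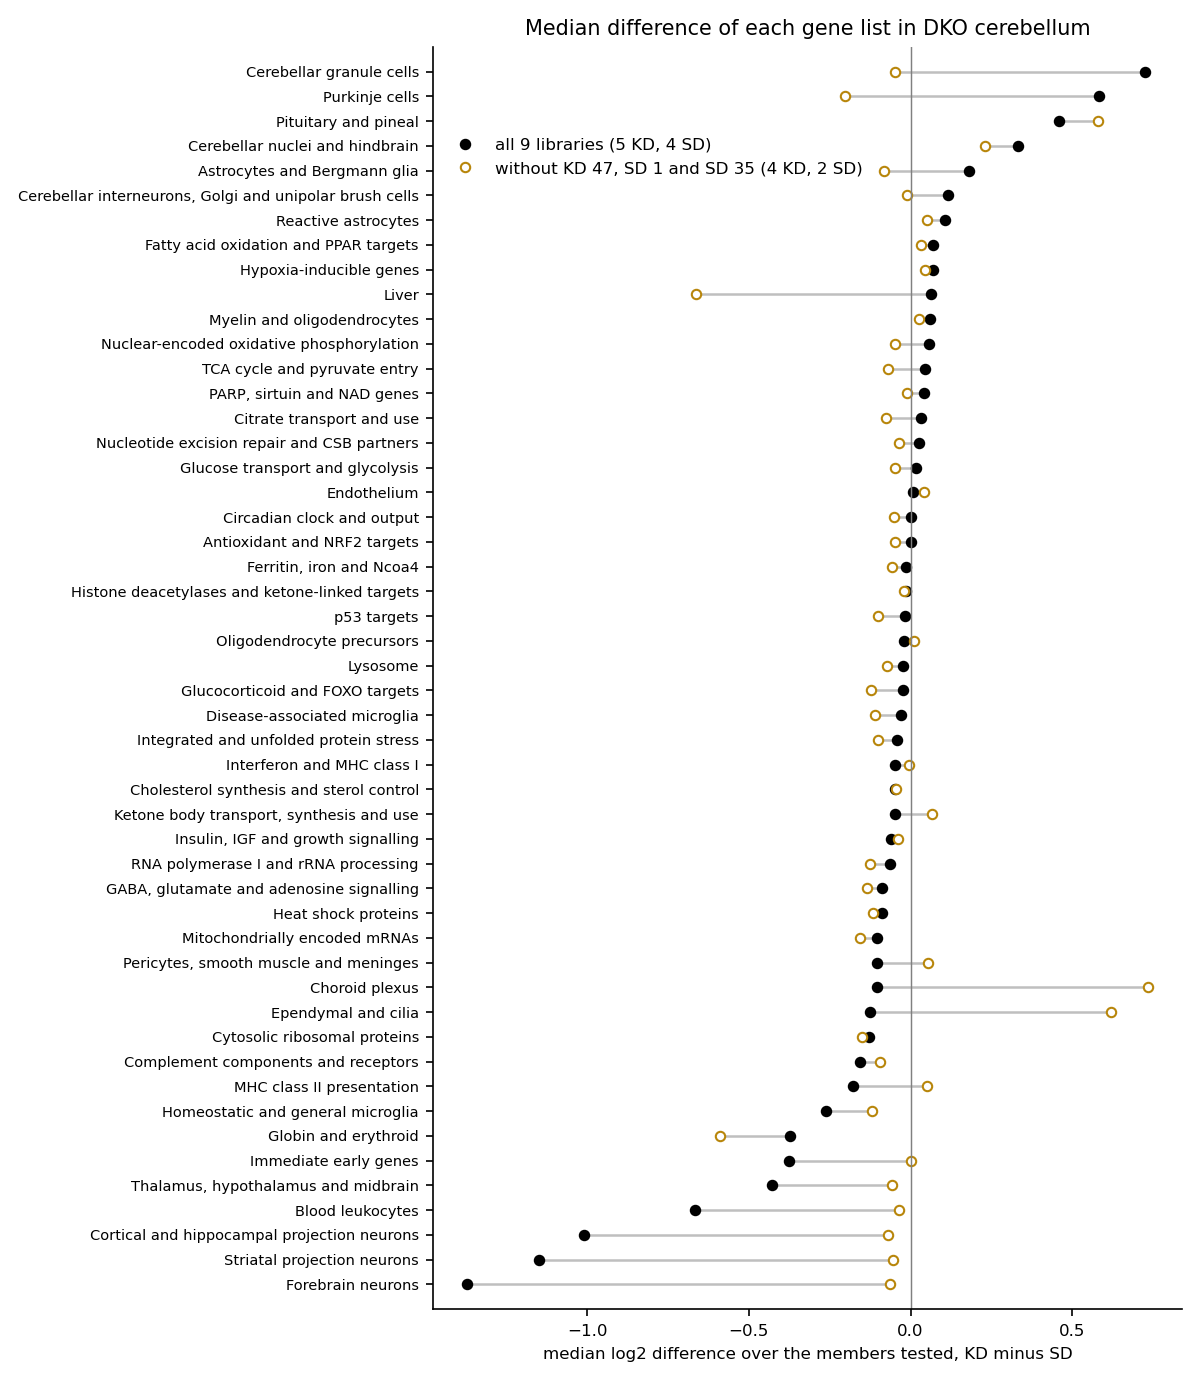
Median log2 difference between KD and SD (x axis) over the tested members of each of 50 gene lists (y axis), with all 9 libraries in black and without KD 47, SD 1 and SD 35 in open gold circles. The forebrain list went to -0.06 and the granule cell list to -0.05 without these libraries, while the choroid plexus list went to 0.73 and the liver list to -0.66.

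Glial, vascular and immune lists had 0 called members, beside 0.00468% of all genes. Of 22 astrocyte and Bergmann glia genes 3 were higher and 0 lower at an unadjusted p under 0.05, beside 4.28% and 3.82% of all genes. Their median was 0.18. Without the 3 libraries 0 were higher and 1 was lower, beside 3.29% and 2.03%, and the median was -0.08. Of 26 microglia genes 0 passed an unadjusted p of 0.05, with a median of -0.26 (and -0.12 without the 3 libraries). Of the genes named, Fcer1g of this list and Cd86 of the MHC class II list did not overlap between the diets. The same was so for 0.988% of all genes with KD lower. The 9 genes of the MHC class II list had a median of -0.18 with all libraries and 0.05 without the 3. Fcer1g, a signalling chain of Fc receptors, read 93.9 to 145.9 in KD and 150.8 to 179 in SD. Cd86, a costimulatory molecule, read 49.23 to 55.58 in KD and 59.9 to 63.68 in SD. Both were lower in every KD library, by log2 differences of -0.45 and -0.27 with standard errors of 0.24 and 0.28. Levels of other tissues varied widely between the libraries of either diet. Choroid plexus markers ranged from 7.22 in KD 24 to 9.24 in KD 2 and from 6.49 in SD 36 to 9.44 in SD 1. Liver genes ranged from 1.88 in KD 47 to 6.24 in KD 24 and from 2.40 in SD 1 to 6.81 in SD 34. The choroid plexus median was -0.10 with all libraries and 0.73 without the 3, and the liver median was 0.06 and -0.66. Ttr, the transthyretin of choroid plexus and liver, read 3210 to 59290 in KD and 1523 to 58010 in SD.

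Outside the cell type lists, synaptic signalling held the most members with small p, followed by RNA polymerase I and rRNA processing. Of 35 synaptic genes 7 were lower and 3 higher in KD at an unadjusted p under 0.05, beside 3.82% and 4.28% of all genes. Without the 3 libraries 1 was lower and 0 were higher, beside 2.03% and 3.29%. Of 27 genes of RNA polymerase I and rRNA processing 6 were lower and 1 higher, and 5 were lower and 0 higher without the 3 libraries, beside the same shares. None was called. Taf1b, a subunit of the SL1 factor of RNA polymerase I, read 305.9, 312.5, 341, 346.6 and 374.4 in KD 2, KD 3, KD 23, KD 24 and KD 47, and 451.7, 395.3, 515.5 and 429.1 in SD 1, SD 34, SD 35 and SD 36. Nolc1, a nucleolar phosphoprotein, read 934.5, 1128, 1070, 1195 and 1245 in KD and 1286, 1301, 1332 and 1247 in SD. Neither gene overlapped between the diets, although KD 47 and SD 36 nearly met in Nolc1. The log2 differences were -0.41 and -0.22 (limma, adjusted p = 0.587 for both), and -0.34 and -0.24 without the 3 libraries. The list level was 9.41 to 9.58 in KD and 9.50 to 9.62 in SD. Nvl, described above with chromosome 1, is a member of this list.

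Single members of other lists kept their direction without the 3 libraries, with none called. They were chosen by the smallest p in either fit, and the smaller fit reuses libraries of the full one. The kept direction therefore supports nothing. Bdnf, which encodes brain-derived neurotrophic factor, read 319.5, 345.7, 272.7, 355.3 and 417 in KD 2, KD 3, KD 23, KD 24 and KD 47, and 401.7, 465, 533.1 and 529 in SD 1, SD 34, SD 35 and SD 36. Only KD 47 and SD 1 crossed, and the log2 difference was -0.50 (limma, unadjusted p = 0.0191) and -0.62 without the 3 libraries (limma, unadjusted p = 0.0248). Atf4, the transcription factor of the integrated stress response, read 1606 to 2268 in KD and 2088 to 3132 in SD, with a log2 difference of -0.34 (and -0.45). Its target Asns, the asparagine synthetase, read 1786 to 2381 in KD and 2358 to 2905 in SD. Pmaip1, the p53 target NOXA, did not overlap, with 26.13 to 58.42 in KD and 67.25 to 115.2 in SD. Vegfa, the angiogenic factor of the hypoxia response, read 1005 to 1304 in KD and 886.7 to 1033 in SD, with a log2 difference of 0.24 (and 0.31). Nmrk1, a kinase that acts on nicotinamide riboside in NAD synthesis, did not overlap, with 228.7 to 295 in KD and 153.7 to 224.6 in SD. The whole lists around these genes had medians between -0.04 and 0.07: stress response -0.04, p53 targets -0.02, hypoxia 0.07 and NAD genes 0.04. Without the 3 libraries these medians were -0.10, -0.10, 0.04 and -0.01. Of 24 genes of nucleotide excision repair 1 was lower at an unadjusted p under 0.05, beside 3.82% of all genes. It was Rad23b, a partner of the damage sensor XPC, with 3332 to 4263 in KD and 4057 to 4541 in SD.

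The other genes that the naming rule took by smallest p in each direction were not called, and those described here had a limma adjusted p of 0.587. Set, a histone chaperone and inhibitor of the phosphatase PP2A, read 3830, 4371, 3295, 4368 and 4121 in KD 2, KD 3, KD 23, KD 24 and KD 47, and 5151, 5103, 5521 and 5162 in SD 1, SD 34, SD 35 and SD 36. Every KD library was below every SD library. The log2 difference was -0.40 with a standard error of 0.09, and -0.38 without the 3 libraries. Set shares 97.3% of 1420 aligned bases with BC085271, so its reads may be split. Kif5a, a neuronal kinesin motor of axonal transport, read 21080, 23980, 20450, 23210 and 25150 in KD and 49400, 34820, 36650 and 27610 in SD. The diets did not overlap, and the highest value was that of SD 1. Its log2 difference of -0.68 was -0.49 without the 3 libraries. Acp2, a lysosomal acid phosphatase, read 1603, 1749, 1654, 1665 and 1750 in KD and 2026, 2162, 1967 and 1888 in SD, again without overlap, with a log2 difference of -0.25 (and -0.28). Tmem267, a membrane protein gene, read 135.4 to 254.1 in KD and 337.3 to 513.7 in SD, the log2 difference being -1.11 (and -1.18).

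In the other direction, Ppip5k1, a kinase that makes inositol pyrophosphates, read 3044, 2755, 3382, 3002 and 3076 in KD 2, KD 3, KD 23, KD 24 and KD 47, and 2187, 2693, 2588 and 2639 in SD 1, SD 34, SD 35 and SD 36. No KD library reached down to the SD range, and the log2 difference was 0.27 (0.19 without the 3 libraries). Il17re, a receptor chain for interleukin-17C, read 58.16, 69.68, 67.97, 68.21 and 41.73 in KD and 11.04, 30.31, 22.75 and 22.62 in SD. The KD libraries were all higher, by a log2 difference of 1.51 (and 1.30). The same gene read 18.42 to 133 in the other genotypes, a range that held both diet groups but SD 1. Stard5, a sterol carrier, read 301.5 to 373.8 in KD and 124.1 to 256 in SD, with log2 differences of 0.78 and, without the 3 libraries, 0.45. Gpr107, a Golgi membrane protein, read 1170 to 1543 in KD and 962.8 to 1055 in SD, with log2 differences of 0.32 and 0.29. Epb41l4b, Kcnk12 and Cabp2 had log2 differences of 0.63, 0.71 and 1.94 with all libraries and of 0.24, 0.29 and 0.57 without the 3. For Cabp2, a calcium-binding protein, the SD values were 1.13, 17.51, 5.004 and 32.01, and SD 36 lay among the KD values of 29.72 to 38.82. Of the 12 genes lower in KD with the smallest p, 11 did not overlap between the diets, and of the 12 higher ones 5 did not overlap; the choice by p makes such separation likely, and these counts support nothing.

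**Figure D5:**
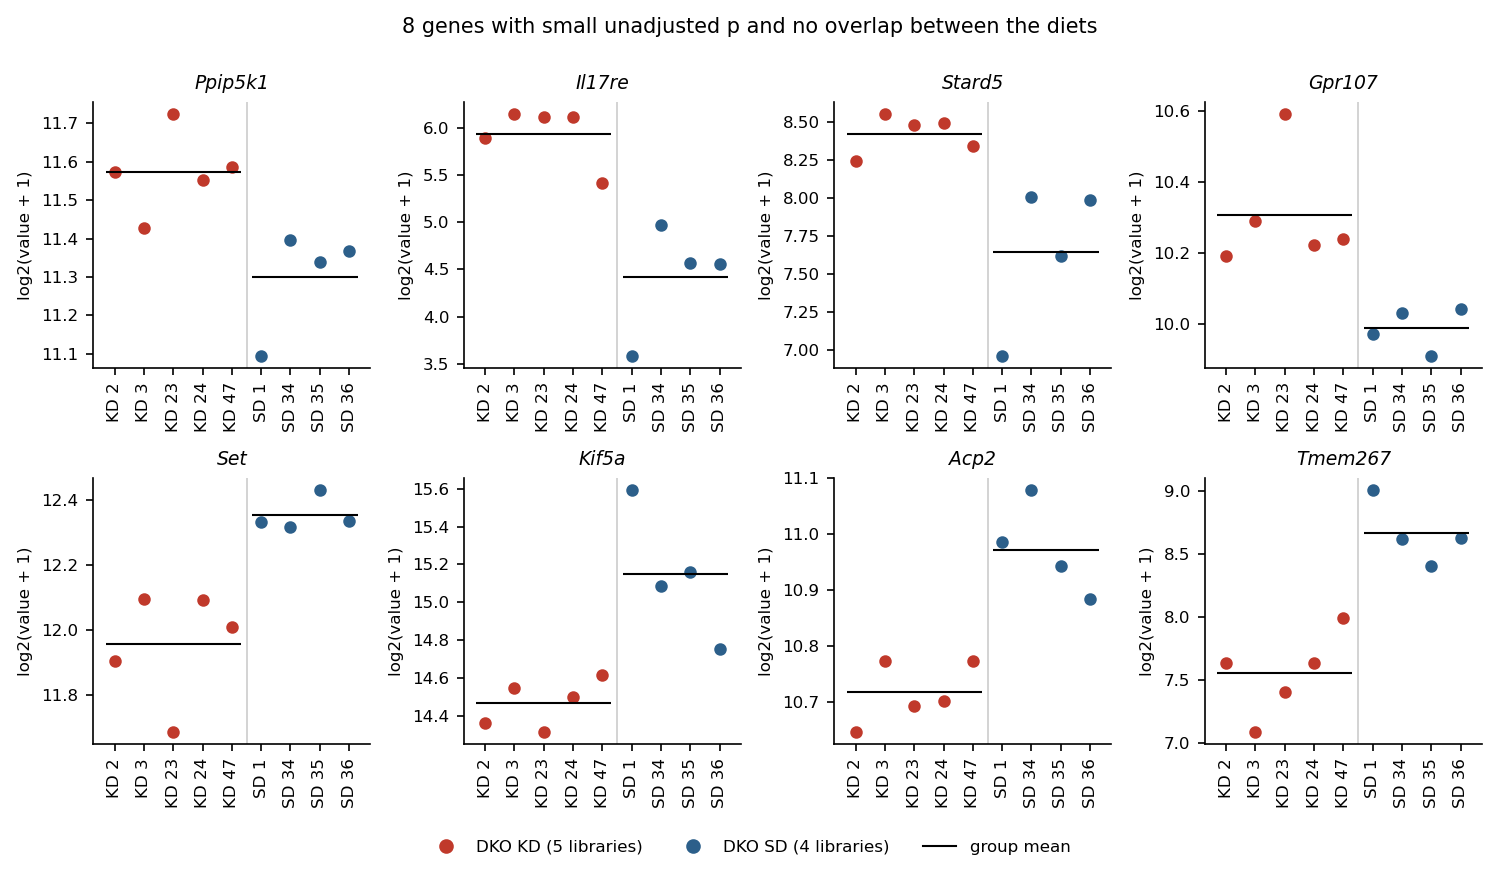
Log2(value + 1) of 8 genes with small unadjusted p (y axis) in each DKO library (x axis), KD in red on the left and SD in blue on the right, with black lines at the group means. The upper row holds genes with KD higher and the lower row genes with KD lower; SD 1 is the farthest from KD in Ppip5k1, Il17re, Stard5, Kif5a and Tmem267.

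Without KD 47, SD 1 and SD 35, the smallest p belonged to Vmn2r30, a vomeronasal receptor gene, with 38.09, 21.62, 41.89 and 31.79 in KD 2, KD 3, KD 23 and KD 24 and 7.554 and 5.034 in SD 34 and SD 36. The excluded libraries read 17.27 in KD 47, 22.78 in SD 1 and 33.91 in SD 35. So the 2 remaining SD libraries were low where the excluded ones were not, and the log2 difference of 2.22 (limma, adjusted p = 0.242) was 1.04 with all 9. Vmn2r30 shares 86.7% of 5055 aligned bases with Vmn2r45. Col22a1, a collagen of tissue junctions, gave a like pattern, with 38 to 76.56 in those 4 KD libraries, 16.75 and 8.15 in SD 34 and SD 36, and 56.63 in SD 1 and 91.63 in SD 35, which were left out. Acss3, a mitochondrial acyl-CoA synthetase of the ketone list, read 152.8 to 247.3 in those 4 KD libraries and 147.3 and 98.4 in SD 34 and SD 36, with a log2 difference of 0.71, but 124.1 in KD 47, 206.6 in SD 1 and 173.4 in SD 35 brought it to 0.25. On the lower side, Copa (-0.32), Tspyl2 (-0.32), Eif4b (-0.28) and Iqcb1 (-0.41) kept a negative difference of -0.23, -0.23, -0.17 and -0.25 with all libraries. These genes were chosen by p in the smaller fit, whose libraries are also in the full fit, so this supports nothing.

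Whether the diet difference in DKO departed from that in the other genotypes was tested as the DKO difference minus the mean of the WT, INDY and CSB differences. In limma 0 of 21367 genes were called (0.0%), with 1124 higher (5.26%) and 1343 lower (6.29%) at an unadjusted p under 0.05. The smallest adjusted p was 0.25 and belonged to Zbtb7c, a zinc finger and BTB domain gene. It read 20.53, 39.46, 29.72, 25.98 and 21.37 in DKO KD and 81.22, 81.67, 90.68 and 41.97 in DKO SD. The diets did not overlap in DKO, with a log2 difference of -1.38, while the mean difference of the other genotypes was 0.44. Kif5a had log2 differences of -0.68 in DKO and 0.51, 0.05 and 0.04 in WT, INDY and CSB. Plod2, a lysyl hydroxylase of collagen, had 0.41 in DKO and -0.66, -0.13 and -0.50 in WT, INDY and CSB. Grm3, a metabotropic glutamate receptor gene, and Hs3st2, a heparan sulfate sulfotransferase gene, were highest in SD 1, at 3071 and 339.6. For Catspere1 the differences in the other genotypes were 1.10 in WT, 0.26 in INDY and 0.91 in CSB, all at values of at most 20.39, and the difference between DKO and their mean was 3.27 with a standard error of 0.74 (limma, adjusted p = 0.25). The forebrain list level averaged 6.37 in DKO KD and 7.69 in DKO SD, against 6.70 and 6.75 in INDY KD and INDY SD, 6.41 and 5.92 in CSB KD and CSB SD, and 7.46 and 5.77 in WT KD and WT SD. Without KD 47, SD 1 and SD 35 the lowest adjusted p of this test was 0.169, for Vmn2r30, and with the forebrain covariate it was 0.416, for Stpg1; their part in the genes named was not tested further.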

How the data were processed

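RNA of 40 libraries labelled cerebellum was deposited as 1 table of signal per gene and library. The authors normalised it: estimated read counts with an equal median ratio in all libraries. Per the submitters' processing notes, reads went through Bowtie2, Salmon and DESeq2 on mm9, with versions and order not given in the sources used here. Normalised sums are not depths, so no counting interval or floor was computed. Symbols and positions came from GENCODE M21 (GRCm38), matched by ID for 54097 of 54331 genes. Strand-specific counting is not stated.

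Genes that reached 10 in 4 or more of the 40 libraries entered the test, as log2(value + 1), with limma 3.58.1 (R 4.3.3), intensity trend and robust variances, all 8 groups in 1 fit. Calls are Benjamini-Hochberg adjusted p under 0.05 over 21367 genes. The fit was tested on simulated data. Errors are standard errors of the fit or standard deviations between libraries. The 50 gene lists, the libraries left out and the named genes were chosen with earlier results of these data known. The genes named are Slc13a5 and Ercc6, the 12 per direction with the smallest p, 8 per direction without libraries 1, 35 and 47, the ketone, citrate and forebrain lists, 3 members of every other list, and 5 per direction of the genotype test, with a mean of at least 20 for those chosen by p. Lists are described by counts and medians. Some list members are counted but not reported singly here. Alternatives were pseudocounts of 0.5 and 5, other filters and scalings, DKO groups alone, array weights, covariates and libraries left out. Similar transcripts were found with minimap2.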

Additional observations from a re-analysis of the deposited data

Results flagged for a closer look

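Dixon's ratio, the gap of the highest or lowest library to its neighbour over the range of its diet group, passed its critical value in 17 of 234 sets of values, 6 of them list levels; chance flags about 1 in 20 groups. All values are log2(value + 1). SD 1 stood apart as the highest of its group in striatal markers (10.97) and in Pde7b, a phosphodiesterase gene (11.04), and as the lowest in disease-associated microglia genes (8.661) and in Acss2 (9.963). KD 3 was the lowest KD library in Catspere1 (3.091) and Ifi202b (0.0) and the highest in Purkinje cell genes (10.83). KD 47 was the highest in cortical and hippocampal markers (8.769), Slc13a5 (0.9519) and Slc16a3 (5.658). KD 2 was the highest in MHC class II genes (6.668) and hypoxia genes (9.652). KD 23 was the highest in Gpr107 (10.59) and the lowest in Ik (11.32). SD 35 was the highest in Set (12.43) and Ifi202b (1.037), and SD 36 the lowest in Zbtb7c (5.425). The other KD libraries were at 0 in Slc13a5 and the other SD libraries at 0 in Ifi202b. Any single value above 0 is then flagged, so the flags of KD 47 in Slc13a5 and SD 35 in Ifi202b support nothing.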

How the results depend on the processing

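The count of called genes, 1 in all, was 2 with a pseudocount of 5, with no filter, with the filter on the DKO libraries, with quantile normalisation and without WT KD 25, the second gene being Ifi202b. It was 0 in a fit of the DKO groups only, with array weights, without libraries 1, 35 and 47 and without libraries 1 and 35. Leaving out each DKO library in turn gave 0 to 2 called genes, 2 without KD 3. The count at an unadjusted p under 0.05, 1732 in all, was 2860 with no filter, 644 with the forebrain covariate, 1136 without libraries 1, 35 and 47, 1093 without libraries 1 and 35, and 810 (without SD 1) to 3047 (without SD 36) with each library left out. With no filter more genes were tested; the other causes were not tested. For the difference from the other genotypes, the count of 0 became 1 with array weights (Zbtb7c) and 0 to 2 with each library left out (2 without KD 3, 1 without KD 47); with the DKO groups only it could not be fitted. No called gene changed sign. Of the named single genes' alternatives, 1429 stayed on their side of the threshold or within the spread, 27 moved, 10 lost a call (all Catspere1) and 6 gained 1 (all Ifi202b); of the list medians 1081 stayed and 19 moved. No paired analysis was possible because the library numbers of the 2 diets do not repeat. The unknown depth limits low genes such as Ifi202b and Hcar2.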

Other observations

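Library KD 23 stood apart from the other KD libraries outside the gene groups above. Over 1802 genes of the annotation class TEC, transcripts that still lack experimental evidence, its mean log2(value + 1) was 5.60, against 4.70 to 4.93 in the other KD libraries and 4.24 to 5.15 in the SD libraries. Over 356 olfactory and vomeronasal receptor genes it was 5.89, against 5.01 to 5.21 in the other KD libraries and 4.45 to 5.52 in the SD libraries, of which SD 36 was the lowest in both. Over 16143 protein-coding genes KD 23 was at 8.21 and SD 36 at 8.25, where the others lay between 8.28 and 8.32. KD 23 had the highest loading, 0.84, on the second principal component of the 9 libraries, which held 15.6% of the variance, while SD 1, SD 35 and KD 47 had the positive loadings of the first, which held 36.5%.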
